A study of Mus musculus with 2 samples.

Results

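Among cells sorted from mouse lymphoid tissue as CD4+ and YFP+, 71 barcodes carried B cell transcripts and no CD3 transcript, of 6859 barcodes kept in all. A barcode, the tag of 1 droplet, was counted as a B cell when Cd79a, Cd79b and Ms4a1 together gave at least 3 UMIs and Cd3d, Cd3e and Cd3g gave 0. A UMI is a molecular tag that stands for 1 captured transcript. The Id2-deficient library held 33 of these cells and the control library held 38. The kept barcodes with at least 1 CD3 UMI and 0 UMIs of the 3 B cell genes are called T cells here, and there were 1743 in the Id2-deficient and 4092 in the control library. The counts of these 6 genes chose the cells, so the contrast of B cells with T cells is a description and carries no test.

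The Id2-deficient library came from Il17Cre/Id2f/f/R26YFP mice and the control library from Il17Cre/R26YFP mice, with 1 library per genotype. Both groups of mice had been given MOG in complete Freund's adjuvant to induce experimental autoimmune encephalomyelitis, a mouse model of multiple sclerosis, and cells were sorted at its peak. Cre is driven from Il17 and turns on YFP from the Rosa26 locus, so the floxed Id2 alleles are lost in cells that have expressed interleukin 17, and YFP marks those cells in both genotypes. The labels disagree on the tissue, which is a draining lymph node in the sample titles, spleen and lymph node in the source field and spleen in the protocol. The sources used here do not state the number of mice per library or the floxed exons of Id2. Cre and YFP were not measured here, so whether the B cells had expressed Cre is not known. With 1 library per genotype no difference between genotypes has a replicate check, no p-value is given, and each 95% interval covers counting error only.

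B cells recognise antigen through a membrane immunoglobulin that signals by way of Cd79a and Cd79b, and they show peptides to CD4+ T cells on class II molecules, with Cd74 as their chaperone. Naive B cells carry IgM and IgD, while plasma cells, which secrete antibody, switch on Jchain and Xbp1 and shut down the B cell programme. Id2 and Id3 bind the E proteins Tcf3, Tcf4 and Tcf12 and keep them from DNA, and E proteins together with Ebf1 and Pax5 establish the B cell programme. E proteins bind the E-box, and Cd79a is a known target of Ebf1 and E proteins.

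Cd79a lies on chromosome 7, 24897381 to 24902197, on the plus strand (GRCm38). The bases just before its first annotated transcript start are shown because Cd79a gave most of the UMIs that chose the cells. They were read from RefSeq's GRCm38.p6 promoter table, chr7:24897247-24897380, plus strand, and the capitals mark the E-box found on a search of both strands for CANNTG.
Cd79a: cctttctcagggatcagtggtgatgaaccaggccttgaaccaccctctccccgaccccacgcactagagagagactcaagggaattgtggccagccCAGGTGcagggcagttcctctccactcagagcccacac
There was 1 E-box in these 134 bases and 0 exact matches to CCCNNGGG, a consensus core for Ebf1. Sites that depart from this core were not searched for, so the 0 does not show that Ebf1 sites are absent. Over 32851 promoters in windows of the same length, 45.4% held an E-box and 6.0% held CCCNNGGG, so 1 E-box is a common content for such a window. Those windows were the first 134 bases of each promoter entry. Unlike the Cd79a window, they were not cut to end at the first annotated transcript start.

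The members were not uniform, and 4 control cells stood apart. They were set apart after the data had been seen, by at least 10 UMIs of Jchain or at least 10 UMIs of Lyz2, S100a8, S100a9, Elane, Prtn3 and Mpo together. One had 48256 UMIs, of which 28538 were Igkc, 7118 Igha and 2662 Jchain, and another had 4655 UMIs with 2536 of Igkc, 243 of Igha and 158 of Jchain, so both carried the transcripts of cells that secrete IgA. The next had 45912 UMIs with 615 of Prtn3 and 303 of Elane, granule proteases of immature myeloid cells. It met the rule with 3 UMIs of Cd79b alone and had 0 of Cd74, which goes against the B cell name. The last had 10940 UMIs with 194 of the lysozyme gene Lyz2 beside 23 UMIs of the rule genes and 58 of Cd74. No Id2-deficient member met these limits. The 4 cells held 43.9% of all control B cell UMIs and 97.0% of the control Igkc UMIs, so values are given for all B cells and, where these 4 move them, also without the 4.

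B cells were 1.71% of kept barcodes in the Id2-deficient library (33 of 1934, exact binomial interval 1.18% to 2.39%) and 0.772% in the control library (38 of 4925, 0.547% to 1.06%). Without the 4 cells set apart the control share was 0.690% (0.479% to 0.963%). These shares depend on the sort, since the gate asked for CD4 and YFP, and on the filter, which removed 525 Id2-deficient and 12 control barcodes. Of the removed barcodes 2 in the Id2-deficient and 0 in the control library met the B cell counts. The 2 libraries had 3 barcode sequences in common, of which 0 belonged to a member.

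The rule genes summed to 35 UMIs in the median Id2-deficient B cell (16 to 66) and to 23 in the median control B cell (3 to 49). Every Id2-deficient member was far from the limit of 3 UMIs. In the control library 2 members had exactly 3 UMIs, 1 of them the Prtn3 cell and the other a cell of 8352 UMIs with 19 UMIs of Cd74. Just outside the limit, with 2 UMIs and no CD3, lay 0 Id2-deficient and 1 control barcode. The depth of a B cell was 4954 UMIs at the median in the Id2-deficient library (3354 to 10221) and 3646.5 in the control library (2109 to 48256), against 6238 and 5396 UMIs in the T cells of these libraries.

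**Figure D1:**
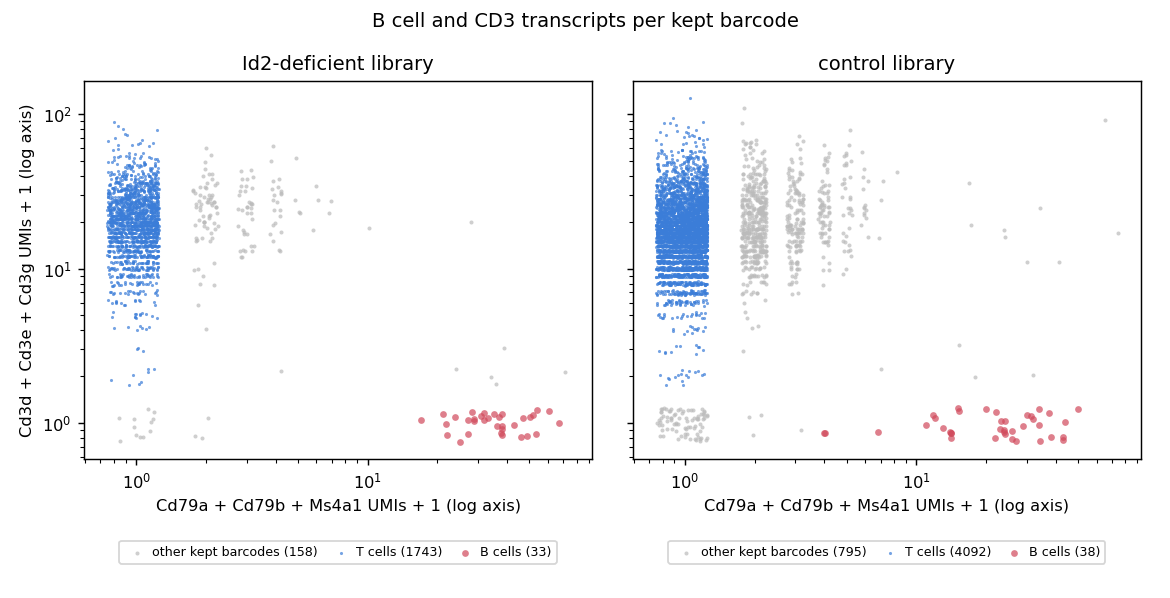
Each point is 1 kept barcode, with its UMIs of Cd79a, Cd79b and Ms4a1 plus 1 on the horizontal log axis and its UMIs of Cd3d, Cd3e and Cd3g plus 1 on the vertical log axis, jittered, for the Id2-deficient library on the left and the control library on the right. The 33 Id2-deficient B cells (red) form 1 group well to the right of the T cells (blue), while 3 of the 38 control B cells lie at low B cell counts.

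The B cell programme was present in both libraries and nearly absent from T cells. Beside the rule genes, Cd74 gave 24 to 135 UMIs per Id2-deficient B cell with a median of 72, and 0 to 122 per control B cell with a median of 57. Summed over cells and scaled to 1000000 UMIs (CPM), Cd74 stood at 13925 CPM in Id2-deficient and 8191 CPM in control B cells (14077 CPM without the 4 cells), against 92.2 and 62.2 CPM in T cells of the Id2-deficient and control libraries. Cd74 was therefore abundant in nearly every member, and the control level was set below the Id2-deficient one by the 4 cells. When every cell was thinned to 1000 UMIs, Cd74 was seen in 33 of 33 Id2-deficient and 35 of 38 control B cells, and in 2.71% and 2.67% of the T cells of these libraries.

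Of the 20 genes listed for B cell identity, 20 were at least 2-fold higher in B cells than in T cells in both libraries, where 4.43% of 11664 measured genes were. Rule genes were not taken out of this or the other B cell lists, and the choice of cells fixed their calls in advance. The genes with the highest ratios included Ebf1, a factor that specifies the B lineage, with 235 UMIs in Id2-deficient and 217 in control B cells, and 1 UMI in the T cells of each library. Fcmr, the receptor for IgM, gave 912 CPM in Id2-deficient B cells and 352 CPM in control B cells (614 CPM without the 4 cells), and at most 0.32 CPM in T cells. Vpreb3, related to the surrogate light chain, and Gm31243, an antisense transcript of unknown role, had 0 UMIs in the T cells of both libraries. Siglecg and Blnk, an inhibitory receptor and an adaptor of B cell receptor signalling, were among the other genes at the top, with Fcer2a, Mef2c, Mzb1, Scd1 and Chst3. Because the cells were picked by their B cell counts, these ratios follow from the choice.

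Of the B cell transcription factors listed, 12 of 18 were at least 2-fold higher in B cells than in T cells in both libraries and 0 were lower. Of the B cell receptor signalling genes 14 of 20 were higher and 0 lower, and of the class II antigen presentation genes 16 of 17 were higher, the exception falling short in at least 1 library. The class II chain gene H2-Aa stood at 4822 CPM in Id2-deficient and 2126 CPM in control B cells (3671 CPM without the 4 cells), against 31.3 and 15.2 CPM in T cells. The lists for some other B cell states were thin. Germinal centre markers gave 8 UMIs in each library over 6 genes. The list of 13 germinal centre genes gave 59 UMIs in Id2-deficient and 90 in control B cells, of which Cd38 gave 48 and 52. Neither the list for B1 cells nor that for memory and age-associated B cells had a gene with 30 UMIs over both libraries' B cells. The list for marginal zone B cells had 3 such genes. Of its 8 genes measured against T cells, 4 were at least 2-fold higher in B cells in both libraries and 1 lower. Over all measured genes these shares were 4.43% and 6.35%.

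The labelled cell type is a Th17 cell, and the members lacked its transcripts. Il17a and Il17f, the cytokines that define these cells, had 0 UMIs in B cells of both libraries, which allows up to 9.09% of the 33 Id2-deficient and 7.89% of the 38 control B cells to carry a UMI of each gene. Il17a was itself rare in T cells, with a UMI in 1.55% of Id2-deficient and 2.20% of control T cells. Cd4, the antigen of the gate, gave 0 UMIs in Id2-deficient and 1 UMI in control B cells, and was seen in 75.7% of Id2-deficient and 61.3% of control T cells. The absence of Cd4 RNA in a droplet says nothing about protein on the sorted cell.

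T cell transcripts were few in B cells. Of the 10 T cell markers, Cd3d, Cd3e and Cd3g were held at 0 by the rule itself. The other 7 gave 36 UMIs in Id2-deficient B cells (201 CPM) and 38 in control B cells (152 CPM), against 6530 and 4688 CPM in Id2-deficient and control T cells. Of these, Cd2, which B cells of the mouse also carry, gave 25 UMIs in Id2-deficient and 26 in control B cells. Trbc2, a T cell receptor constant gene, gave 2 UMIs in each library's B cells, against 2579 and 1929 CPM in Id2-deficient and control T cells. Apart from the CD3 genes, the list of T cell genes held 18 genes, of which 17 were at least 2-fold lower in B cells in both libraries, where 6.35% of measured genes were. The 8 genes with the lowest ratios were Trbc1, Trbc2, Trac, Thy1, Lat, Maf, S100a4 and Ms4a4b.

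Markers of other cell types differed in level. The natural killer markers Ncr1, Klrb1c and Eomes gave 0 UMIs in B cells of both libraries, and the 6 dendritic cell markers gave 0 UMIs in Id2-deficient and 2 in control B cells. Myeloid markers summed to 302 CPM in Id2-deficient and 2262 CPM in control B cells, and to 286 CPM in control B cells without the 4. In T cells the same markers summed to 167 CPM in the Id2-deficient and 2052 CPM in the control library, and their part in the differences between libraries was not tested. Haemoglobin transcripts summed to 11.2 CPM in Id2-deficient and 300.3 CPM in control B cells (536 CPM without the 4). Hbb-bs, a beta-globin gene, came from 2 control B cells, with 97.3% of its B cell UMIs in 1 of them. In T cells Hbb-bs stood lower in the Id2-deficient library, at 2.05 CPM against 134 CPM in control.

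**Figure D2:**
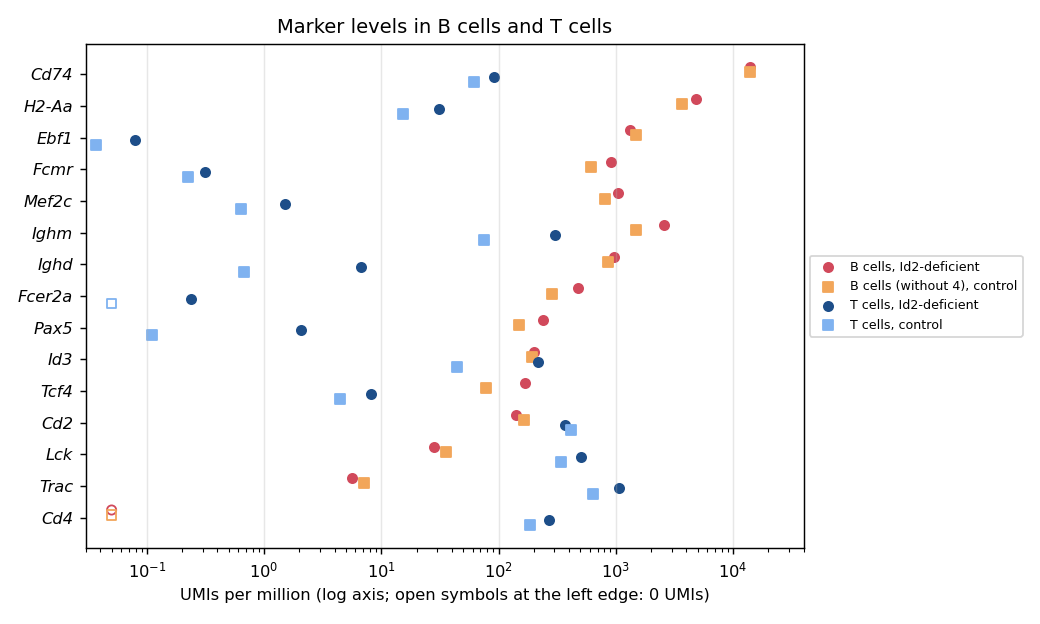
Summed UMIs per 1000000 (CPM) on a log axis for 15 marker genes, in Id2-deficient B cells, control B cells without the 4 cells set apart, Id2-deficient T cells and control T cells. Open symbols at the left edge stand for 0 UMIs; the B cell genes lie apart by lineage in both libraries, as with Cd74 at 13925 and 14077 CPM in B cells against 92.2 and 62.2 CPM in T cells.

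Most members carried the immunoglobulin transcripts of naive B cells. Ighm, the IgM heavy chain (chromosome 12, 113418558 to 113422730), was seen in 33 of 33 Id2-deficient and 35 of 38 control B cells. It gave 3 to 36 UMIs with a median of 12 in Id2-deficient B cells and 0 to 22 with a median of 5.5 in control B cells. Ighd, the IgD heavy chain, was seen in 32 of 33 Id2-deficient and 29 of 38 control B cells. The 1 Id2-deficient cell without Ighd had 17 UMIs of Ighm, 66 of the rule genes and 24 of Cd74, and 0 UMIs of the class II chain genes. The switched heavy chains were scarce: Ighg1, Ighg2c and Ighe had 0 UMIs in both libraries, Ighg2b had 0 UMIs in Id2-deficient and 2 in control, and Ighg3 had 0 and 4. Igha had 1 UMI in Id2-deficient B cells and 7361 in control B cells, with 0 in control once the 4 cells were left out.

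The light chains were mostly kappa. The kappa constant gene Igkc was seen in 31 of 33 Id2-deficient and 36 of 38 control B cells, with medians of 47 and 30.5 UMIs. Lambda constant genes gave more UMIs than Igkc in 5 Id2-deficient and 5 control B cells, and 2 in each library had 0 Igkc UMIs. Some lambda UMIs were found in nearly every cell, with 33 of 33 Id2-deficient and 36 of 38 control B cells above 0. The constant genes Iglc2 and Iglc3 are close copies, so how reads were split between them is uncertain. The variable genes of the heavy chain could be told in 5 Id2-deficient and 5 control B cells and all differed within a library. For the light chain they could be told in 8 Id2-deficient cells with 8 different genes, and in 10 control cells with 9 different genes.

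Ighm was also found in T cells, and there it differed between libraries. It gave 302 CPM in Id2-deficient T cells, with a UMI in 1230 of 1743 cells, and 75.5 CPM in control T cells, with a UMI in 1064 of 4092 cells. The log2 ratio was 2.00 (1.92 to 2.08). In T cells Igkc gave 0.0797 UMIs per UMI of Ighm in the Id2-deficient library (0.0707 to 0.0896) and 0.204 in the control library (0.183 to 0.227). In B cells the same quotient was 3.82 in the Id2-deficient library (3.45 to 4.25) and, in the control library, 143 over all B cells (126 to 164) and 4.64 without the 4 cells (3.99 to 5.42). The T cells of each library therefore held far fewer Igkc UMIs for each Ighm UMI than the B cells beside them, and RNA from B cells as the source was not tested further.

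Between genotypes, transcripts encoded by mitochondria took a larger share of the RNA of Id2-deficient than of control B cells. They made up 3.83% of the UMIs of the median Id2-deficient B cell (2.63% to 5.81%) and 2.14% of those of the median control B cell (0.340% to 5.60%), a 1.79-fold difference of medians. All 33 Id2-deficient B cells lay above the control median and 2 of 38 control B cells lay above the Id2-deficient median, although the ranges overlap. Without the 4 cells the control median was 2.25% and the difference 1.70-fold. In T cells the medians were 4.21% in the Id2-deficient and 1.75% in the control library, a 2.40-fold difference. The upper limit of 10% was part of the rule for kept barcodes and took 525 barcodes from the Id2-deficient library.

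**Figure D3:**
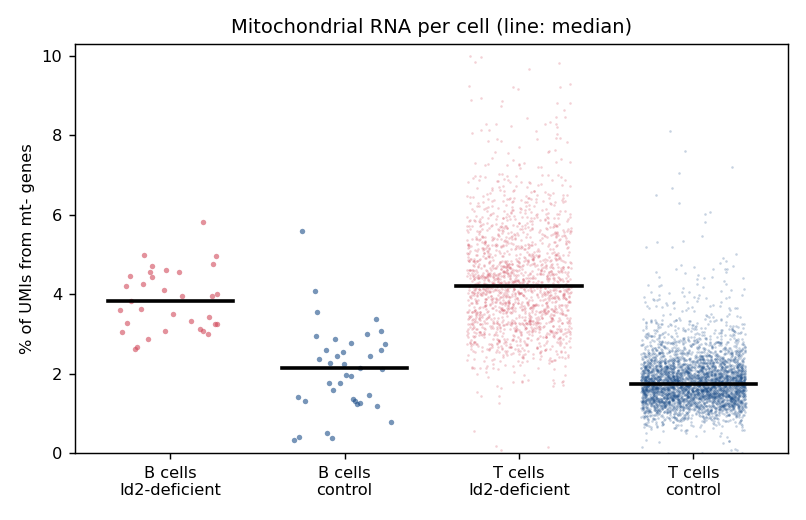
Percent of UMIs from mitochondrially encoded genes in each cell (points) and the median (line), for Id2-deficient and control B cells and for Id2-deficient and control T cells. The medians are 3.83% and 2.14% in B cells and 4.21% and 1.75% in T cells.

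Counts over all genes set the scale for the gene by gene ratios. A gene counted as measured with 30 or more UMIs over the B cells of both libraries together, and it was called if the Id2-deficient and control CPM differed at least 2-fold with a counting interval that left out no difference. Over all B cells 154 of 1656 measured genes were higher (9.3%) and 157 lower (9.48%) in the Id2-deficient library. Without the 4 cells 32 of 1290 were higher (2.48%) and 67 lower (5.19%), so most calls rested on those cells. In T cells, of 1614 such genes also measured there, 55 were higher (3.41%) and 62 lower (3.84%). The median log2 ratio of all measured genes was 0.04 in all B cells, −0.13 in B cells without the 4 and −0.11 in T cells. The control B cells left without the 4 were not uniform either. A cell of 8352 UMIs had 3 UMIs of the rule genes and 0 of Ebf1, with 0.790% mitochondrial UMIs. Another of 10285 UMIs had 0 of Ighm and Ighd, with 0.399%. Deep cells weigh more in summed counts, and the part of these cells in the remaining calls and ratios was not tested.

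Among 12 measured mitochondrially encoded genes 8 were called higher and 0 lower in Id2-deficient B cells, and 4 and 0 without the 4 cells. Their median log2 ratio was 1.28 in all B cells, 0.77 without the 4 cells and 1.05 in T cells. mt-Co3, a subunit of cytochrome c oxidase, stood at 5790 CPM in Id2-deficient and 1798 CPM in control B cells, with log2 ratios of 1.69 (1.53 to 1.85) over all B cells, 1.35 (1.17 to 1.54) without the 4 cells and 1.74 in T cells. mt-Atp6, a subunit of ATP synthase, stood at 8649 CPM in Id2-deficient and 2859 CPM in control B cells, with log2 ratios of 1.60, 1.09 and 1.71 in the same order. The complex I subunit genes mt-Nd1 and mt-Nd2 were the other 2 called without the 4 cells, at 1.07 and 1.08. The list was not uniform, since mt-Nd4l, another complex I subunit, went the other way at −0.45 in all B cells, −0.70 without the 4 and −0.37 in T cells.

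The nuclear genes for the same machinery did not share this shift. Of 32 measured nuclear genes of oxidative phosphorylation 1 was called higher and 2 lower in Id2-deficient B cells, and 0 and 1 without the 4 cells, with a median log2 ratio of −0.39 and −0.31. The lowest was Atp5g1, a subunit of ATP synthase, at −1.37 (−1.97 to −0.80) over all B cells and −1.26 without the 4, against −0.24 in T cells. Of 9 measured glycolysis genes 0 were called higher and 2 lower, and 0 and 1 without the 4 cells, with medians of −0.73 and −0.66 in B cells and −0.09 in T cells. Gapdh stood at 403 CPM in Id2-deficient and 917 CPM in control B cells (800 CPM without the 4), a log2 ratio of −1.19 and, without the 4, −0.99 (−1.44 to −0.55), while in T cells it was 0.05.

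The genes with the highest lower bounds were mostly of these kinds: mitochondrial, ribosomal RNA and ribosomal protein. Gm42418 overlaps the ribosomal RNA repeat (chromosome 17, 39846958 to 39848788) and stood at 8593 CPM in Id2-deficient and 2799 CPM in control B cells. Its log2 ratio was 1.62 over all B cells, 1.18 without the 4 cells and 1.65 in T cells. AY036118, which lies on the opposite strand of the same stretch, had ratios of 2.41, 1.73 and 2.31, and since the sources used here do not state the strand used in counting, the pair cannot be told apart. Lars2, the mitochondrial leucyl-tRNA synthetase, had ratios of 2.24, 1.63 and 1.69. For these 3 transcripts and for mt-Co3 the shift in B cells lay in the direction of that in T cells.

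Ribosomal protein genes split. Over 28 measured genes 2 were called higher and 0 lower in all B cells, and 0 and 0 without the 4, with a median log2 ratio of 0.36 and −0.04. Outside that list Rpl23a had ratios of 1.68 in all B cells, 1.52 without the 4 and 1.23 in T cells, and Rpl13a 1.58, 1.23 and 0.97. Rpl12 had 1.55, 1.17 and 1.22. Ribosomal protein genes have many processed copies in the genome, so these values are uncertain where reads could be split.

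Hspa1b, an inducible heat shock protein, gave 58 UMIs in Id2-deficient and 12 in control B cells, with a log2 ratio of 2.76 (1.84 to 3.79), 2.51 without the 4 cells and 1.71 in T cells. It is a close copy of Hspa1a, so the split of reads between them is uncertain. Of 15 measured genes of immediate early response and dissociation stress 2 were called higher and 1 lower, and 2 and 0 of 13 without the 4 cells, where Jun was the other one at 1.09 (0.45 to 1.77). In T cells Jun was at 1.08. Fos, of the same family, was at −1.25 over all B cells and 0.10 without the 4. The list as a whole thus showed no common direction, with a median of 0.08 over all B cells and −0.28 without the 4.

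**Figure D4:**
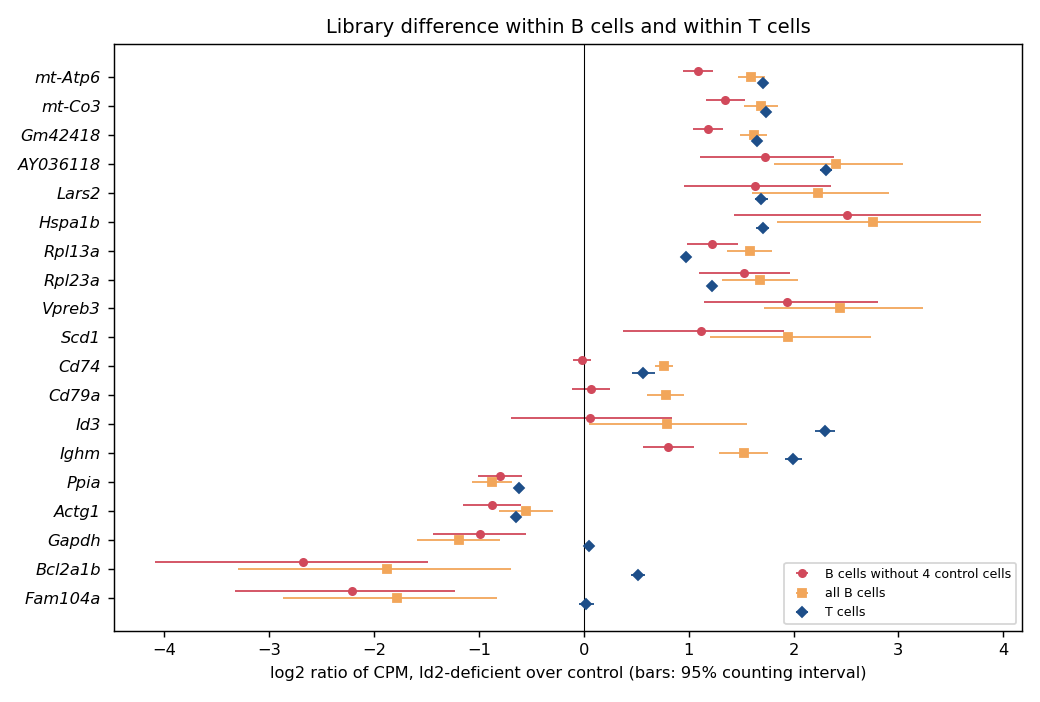
Log2 ratio of CPM, Id2-deficient over control, for 19 genes in B cells without the 4 control cells, in all B cells and in T cells, with 95% counting intervals as bars; ratios with 0 UMIs in T cells are not drawn. mt-Co3, Gm42418, Lars2 and Hspa1b lie above 0 in all 3, while Id3 is at 0.06, 0.79 and 2.30 in that order.

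Genes of the B cell programme were called higher in the Id2-deficient library over all B cells, and most of these calls were lost without the 4 control cells. Of 20 measured identity genes 12 were called higher and 0 lower over all B cells, with a median log2 ratio of 1.12, and without the 4 cells 1 was higher and 0 lower with a median of 0.42. Without the 4 cells the log2 ratio was −0.02 (−0.10 to 0.07) for Cd74 and 0.07 (−0.11 to 0.25) for Cd79a, a gene of the rule. It stayed above 0 but under 2-fold for Cd79b, also of the rule, at 0.42 (0.18 to 0.66), for Fcmr at 0.57 (0.18 to 0.96) and for Fcer2a at 0.74 (0.18 to 1.32). The 1 gene still called was Vpreb3, with 78 UMIs in 18 Id2-deficient cells and 20 UMIs in 14 control cells, at 2.45 over all B cells and 1.93 (1.14 to 2.81) without the 4. Scd1, a desaturase of fatty acid synthesis, had 58 and 21 UMIs in Id2-deficient and control B cells and ratios of 1.95 and 1.11. B3gnt5, a glycosyltransferase, had 27 and 6 UMIs and ratios of 2.65 and 1.82, while in T cells it was at −0.30.

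The other B cell lists also lost most of their calls without the 4 cells. For class II antigen presentation 3 of 14 measured genes were called higher and 0 lower with a median of 0.68, and 0 and 0 of 12 without the 4 cells with a median of −0.03. For B cell receptor signalling 3 of 12 were higher and 0 lower, and 1 and 1 without the 4 cells. The higher one was Malt1, a protease of the receptor's signalling complex, at 1.27 (0.30 to 2.35), and the lower one Cd81, a tetraspanin of the B cell surface, at −1.11 (−1.87 to −0.38). For follicular and naive B cells 5 of 7 were higher and 0 lower with a median of 1.37, and 0 and 0 without the 4 cells with a median of 0.72. Among cytokine receptors and survival genes 1 of 9 was higher and 1 lower, and 0 and 2 without the 4.

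The lower ones without the 4 cells were Bcl2a1b, a survival factor of the Bcl2 family, and Gpr183, a receptor that guides B cells within follicles. Bcl2a1b gave 7 UMIs in Id2-deficient and 36 in control B cells, with a log2 ratio of −1.88 (−3.29 to −0.69), −2.67 without the 4 cells and 0.52 in T cells. It has close copies in the genome, so its counts are uncertain. Gpr183 was at −1.48 (−2.43 to −0.59) without the 4 cells and 0.45 in T cells. Among the other genes with the lowest upper bounds, Fam104a was at −1.79 in all B cells, −2.21 without the 4 and 0.03 in T cells, and Nars, a cytosolic asparaginyl-tRNA synthetase, at −1.90, −2.42 and −0.15. Actin gamma Actg1 was at −0.55, −0.87 and −0.65, and Npm1, a nucleolar chaperone, at −0.56, −0.96 and −0.15. Tmbim6, Timm13, Rap1a and Ndufs8 had ratios from −1.25 to −1.05 over all B cells and from −1.39 to −0.96 without the 4.

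**Figure D5:**
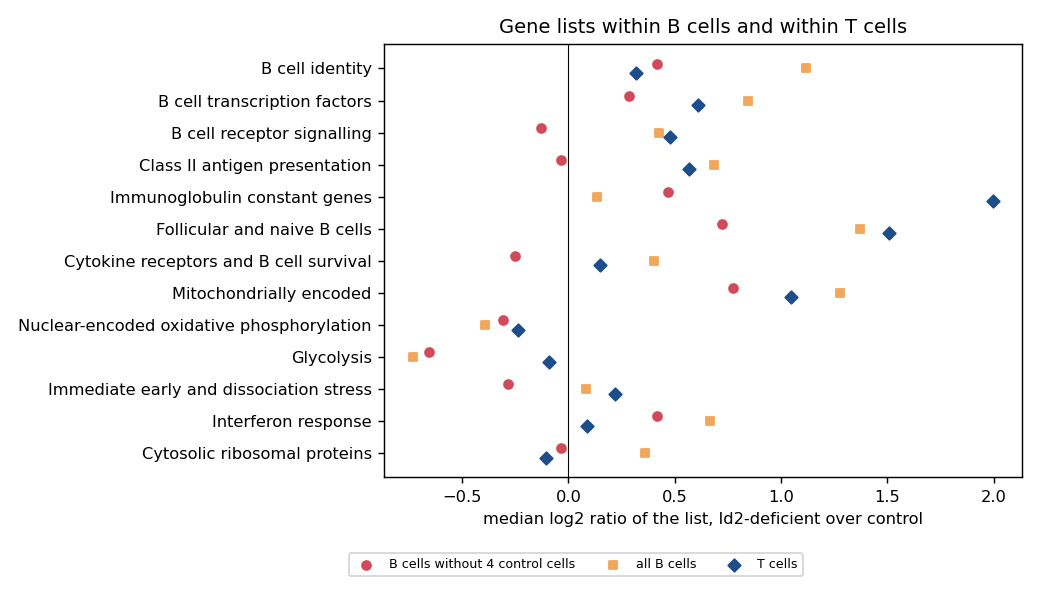
Median log2 ratio, Id2-deficient over control, of the measured genes of 13 lists, in B cells without the 4 control cells, in all B cells and in T cells for the genes of the list measured in both. The mitochondrially encoded list is at 0.77, 1.28 and 1.05 in that order, and the class II list at −0.03, 0.68 and 0.57.

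The gene targeted in this study was hardly expressed in B cells. Id2 (chromosome 12, 25093799 to 25097140) gave 0 UMIs in 33 Id2-deficient B cells, and 6 UMIs from 2 cells in control B cells, or 2 UMIs from 1 cell without the 4. The value in Id2-deficient B cells allows up to 16.8 CPM, which reaches the control level without the 4 cells of 14.3 CPM, so B cells could not show a loss of Id2 at this depth. In T cells Id2 stood at 11.9 CPM in the Id2-deficient and 326 CPM in the control library, a log2 ratio of −4.77 (−5.01 to −4.54).

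The relatives and partners of Id2 were measured in both cell types. Id3, the other inhibitor of E proteins in lymphocytes, gave 36 UMIs in Id2-deficient and 29 in control B cells, or 201 and 116 CPM. Its log2 ratio was 0.79 (0.05 to 1.55) over all B cells and 0.06 (−0.70 to 0.84) without the 4, while in T cells it was 2.30 (2.20 to 2.40), at 217 CPM in the Id2-deficient and 44.0 CPM in the control library. The counting intervals of B cells and T cells did not overlap, and the difference between them was not tested, as each rests on 1 library per genotype. Tcf4, an E protein known for its role in plasmacytoid dendritic cells, gave 30 and 17 UMIs in Id2-deficient and control B cells, with ratios of 1.3 (0.40 to 2.25), 1.10 (0.06 to 2.24) without the 4, and 0.88 in T cells. Tcf3 and Tcf12 had 13 and 8 UMIs in Id2-deficient and 13 and 3 in control B cells, too few to tell a direction.

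Some other differences between the T cells of the libraries could be set beside B cells of the same libraries. Klf2, a factor that keeps lymphocytes circulating, was chosen after its values were seen. It stood at 811 CPM in Id2-deficient and 452 CPM in control B cells, or 700 CPM without the 4, a log2 ratio of 0.84 and 0.21 (−0.17 to 0.60). In T cells it stood at 339 CPM in the Id2-deficient and 1217 CPM in the control library, a ratio of −1.85. Xist, the RNA that silences an X chromosome, was at 0.43 over all B cells and −0.05 (−0.47 to 0.38) without the 4 cells, against 1.25 (1.21 to 1.28) in T cells, and 4 Y-linked genes had 0 UMIs in B cells of both libraries. Ighm was at 1.52 over all B cells and 0.80 (0.56 to 1.05) without the 4, against 2.00 in T cells. Ly6e, an interferon-induced surface protein, was at 1.06, 0.92 (0.60 to 1.24) without the 4, and 0.91 in T cells. In B cells without the 4, Klf2, Xist and Id3 thus had intervals that included no difference, while Ly6e and Ighm, like mt-Co3, did not. Whether the libraries differed in handling, mice or tissue was not tested and cannot be told apart from genotype here.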

How the data were processed

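Both libraries are 10x Genomics 3′ single-cell RNA libraries. The deposited files hold UMI counts per gene and barcode, as raw counts made by the authors with Cell Ranger, version 5.0.1 per the file headers and 1.3 per the submitters' processing notes, on mm10 per those notes. Barcodes under 200 genes, or with over 10% of their UMIs from mt- genes, were removed. No doublet caller was run; barcodes with B cell and CD3 transcripts were left out of both cell groups. Counts were summed over the cells of a group and scaled to 1000000 UMIs (CPM). Log2 ratios have exact conditional binomial intervals at 95%, and a group at 0 UMIs was set to 3 counts. The summed depth was 178749 UMIs in Id2-deficient and 249776 in control B cells. Shares have Clopper-Pearson intervals. Intervals and limits cover counting error only. For both cell groups genes were named by fixed ranks: 15 highest and 8 lowest ratios of B cells over T cells, 10 highest lower bounds and 10 lowest upper bounds between libraries (genes with under 20% of their B cell UMIs in 1 cell), and list extremes; other genes named were chosen after their values were seen. The members, the 26 gene lists and tests were chosen with earlier results of these data known. Positions come from GENCODE M21 (32158 of 32285 gene IDs matched). Ratios were checked on simulated sums with counting error only. The simulation held no differences between cells, so it could not check calls that rest on a few cells. Python 3.11.15, numpy 2.4.6, scipy 1.17.1, pandas 2.3.3 and matplotlib 3.10.9 were used. Alternatives changed the B cell limit, the T cell transcripts allowed, the mt- limit, the denominator, the weight of cells and the minimum UMIs per gene. Some results named by these ranks are not reported here.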

Additional observations from a re-analysis of the deposited data

Results flagged for a closer look

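Of the named genes, 10 had log2 ratios of opposite sign in B cells and T cells, each with a counting interval that left out 0. Of these, 3 had ratios of at least 1 in size in B cells and 0.5 in T cells and are given here; the difference between the cell types was not tested. Igkc was at −3.70 in B cells and 0.64 in T cells, and it was at 0.52 in B cells without the 4 control cells set apart. Bcl2a1b was at −1.88 in B cells and 0.52 in T cells. Tnfrsf13c, the receptor for the B cell survival factor BAFF, was at 1.16 in B cells and −2.0 in T cells, where it stood at 0.32 CPM in the Id2-deficient and 1.26 CPM in the control library, and at 0.37 (−0.27 to 1.03) in B cells without the 4.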

How the results depend on the processing

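The count of genes called within B cells (154 higher, 157 lower) depended on the settings. Without the 4 control cells, chosen after seeing the data, it was 32 higher and 67 lower, and with cells free of T cell receptor and Cd4 UMIs 33 and 65. With cells weighted alike it was 53 and 93, with at least 10 UMIs per gene 325 and 300, and with at least 100 UMIs per gene 49 and 37. With at least 5 B cell UMIs per cell 48 were lower, and without the deepest cell of each library 78 were higher. These settings overlap with leaving out the 4. The limit on T cell receptor and Cd4 UMIs also removed the Prtn3 cell and the control cell with 48256 UMIs. The limit of 5 B cell UMIs removed the Prtn3 cell, and the control cell left out as deepest was the one with 48256 UMIs. Between B cells and T cells, 484 genes were lower when mt-, ribosomal and immunoglobulin genes were left out of the denominator (741 before), and 332 were higher with at least 100 UMIs per gene (517 before). With CD3 transcripts allowed, B cells made up 3.72% of Id2-deficient and 3.57% of control barcodes. Without the 4 cells the log2 ratios of 17 of 95 named genes changed sign, 10 of them with an interval over all B cells that left out 0. Those called at 2-fold over all B cells were S100a4, then at 0.65, Ifitm3 at 0.65, Igkc at 0.52, Xbp1 at 0.79 and Fos at 0.10. The median log2 ratio of mitochondrially encoded genes was above 0 under each alternative run, from 0.77 to 1.39. No paired analysis was possible because each genotype has 1 library. With 33 and 38 cells and medians of 4954 and 3646.5 UMIs, genes under 30 UMIs in all could not be compared.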

Other observations

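Barcodes that held both kinds of transcript, at least 3 UMIs of the B cell genes and at least 1 of CD3, numbered 39 in the Id2-deficient and 138 in the control library, and fell into separate groups by their B cell counts. With under 10 B cell UMIs there were 33 and 126. Their B cell UMIs were nearly all Cd79b, with 118 UMIs of Cd79b and 1 of Cd79a in the Id2-deficient library and 451 and 6 in the control library. The 126 control barcodes also held 20689 UMIs of Igkc, seen in only 13 of them, and 3145 of Ighm, seen in 20. All 599 UMIs of Jchain in this group came from 1 barcode. Trdc, the constant gene of the delta T cell receptor chain, was seen in 32 of 33 Id2-deficient and 113 of 126 control barcodes of this kind, against 4.42% of Id2-deficient and 8.97% of control T cells. The T cells had 0 UMIs of Cd79b by the rule, which kept barcodes with Cd79b out of this reference. Among barcodes with CD3 and 1 or 2 B cell UMIs, Trdc was seen in 56.7% of Id2-deficient and 70% of control ones. In B cells Trdc had 0 UMIs in both libraries.

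With 10 or more B cell UMIs there were 6 Id2-deficient and 12 control barcodes. The 6 Id2-deficient ones had 14198 CPM of Cd74 and 0 UMIs of Jchain. The 12 control ones had 3670 CPM of Cd74, 6719 UMIs of Ighm, 26240 of Igkc and 1328 of Jchain, and Jchain came from 3 of them.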
